A study of Mus musculus with 24 samples.

Results

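The SLC25 family holds the carriers that pass metabolites through the inner mitochondrial membrane, and its hepatic expression was compared between C57Bl6 mice and 2 transgenic lines, alb-SREBP-1a and its phosphorylation-deficient counterpart alb-SREBP-1a∆P. Members were all genes whose array annotation gives an Slc25a symbol followed by a number, on probe sets that carry no other symbol. This rule found 46 of 19938 genes, on 50 of 35556 probe sets. For the 3 genes with several probe sets (Slc25a5, Slc25a36 and Slc25a40) the brightest one was used. The rule used no difference between genotypes.

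Each carrier is a small protein of the inner membrane that binds its substrate on one face and releases it on the other, often in exchange for a second substrate. Because the membrane is otherwise closed to charged metabolites, these carriers connect the pathways of the matrix with those of the cytosol. In hepatocytes they move citrate for lipid synthesis, malate, aspartate and 2-oxoglutarate for the transfer of reducing equivalents, ornithine for the urea cycle, acylcarnitines for fatty acid oxidation, and ADP, ATP and phosphate for energy supply. Some members lie elsewhere, such as Slc25a17 in the peroxisomal membrane and Slc25a46 in the outer mitochondrial membrane.

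RNA from the livers of 24 mice was hybridised to Affymetrix Mouse Gene 1.0 ST arrays, with 8 mice per genotype and an array for each mouse. All mice were male litter mates with a C57Bl6 background, aged 24 weeks, on normal chow. C57Bl6 mice carried no transgene. The alb-SREBP-1a mice express the N-terminal active domain of human SREBP-1a, a transcription factor of lipid synthesis, behind the albumin promoter, which drives it in hepatocytes. In alb-SREBP-1a∆P mice, the same transgene lacks its MAPK phosphorylation sites. The values are log2 RMA signals, where 1 unit is a doubling, and differences are given in log2 ± standard error. A gene was called higher or lower where limma's p, adjusted over all 35556 probe sets by the Benjamini-Hochberg method, was under 0.05. Called and not called refer to this fit of the deposited values unless another setting is named.

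The alb-SREBP-1a∆P arrays stood apart as a whole. Their medians lay between 5.69 and 5.81, against 5.54 to 5.65 in the other genotypes. The spread of their signals was narrower, with an SD of 2.02 to 2.09 against 2.14 to 2.25. In the comparison with C57Bl6, probe sets of the dimmest decile had a median difference of 0.37, those of the ninth decile of -0.29 and those of the brightest decile of -0.20. Of the carriers, 37 lay above the median level of all probe sets, and 15 belonged to the brightest decile. Counts over all members are therefore given beside those of all probe sets above the median level. Shares of probe sets also stand beside the counts by substrate, although 9 members lie below the median level. The part of array-wide scale in any difference of this genotype was not tested beyond 3 other scalings of the arrays.

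As bulk liver was measured, fewer cells of a type and less RNA per cell cannot be told apart. The hepatocyte markers Alb, Ttr and Cyp2e1 were among the brightest signals of every group. Of the 5 hepatocyte markers found, Apoa2 was higher and Cps1 lower in both lines, and Alb and Ttr were also lower in alb-SREBP-1a∆P (-0.16 each). The summed linear signal of these markers ranged from 72930 to 79010 in C57Bl6, from 70700 to 83880 in alb-SREBP-1a and, in the phosphorylation-deficient line, from 64660 to 75000. Markers of Kupffer cells and macrophages were higher for 5 of 8 genes in alb-SREBP-1a, where they summed to 2201 to 3277, and for 4 of 8 in alb-SREBP-1a∆P, where they summed to 2035 to 3370, against 1644 to 2334 in C57Bl6. Of all probe sets, 6.77% and 27% were higher in the 2 lines. In deciles 8 to 10 of signal, where most of these markers lie, it was 11.7% to 14.1% and 10.5% to 12.9%. Adipocyte markers were dim, summing to 71.3 to 84.3 in C57Bl6 and 83.7 to 141.6 in alb-SREBP-1a∆P, and all 3 found were called higher there. They lie in deciles 2 (Adipoq), 3 (Lep) and 5 (Plin1) of signal. In these deciles 43.6%, 40.5% and 31.5% of all probe sets were also higher in alb-SREBP-1a∆P. The part of these cell types in the results below was not tested.

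In alb-SREBP-1a liver the carriers moved downward or were not called. Compared to C57Bl6, 10 of 46 members were lower and 0 were higher, where 3.98% of all probe sets were lower and 6.77% higher. Above the median level, 9 of 37 members were lower against 7.1% of probe sets. At an unadjusted p under 0.05, limma gave 2 higher and 13 lower members, and the methods' t-test after adjustment also gave 0 higher. The median difference of the members was -0.07, against 0.01 over all probe sets, and it stayed below 0 under each of 3 other scalings. In 3 members (Slc25a11, Slc25a17 and Slc25a27) every alb-SREBP-1a array lay below every C57Bl6 array, as for 1.03% of all probe sets and 2.02% of those above the median level.

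In alb-SREBP-1a∆P liver more carriers were lower. Compared to C57Bl6, 21 of 46 members were lower and 2 higher (Slc25a18 and Slc25a34), where 20.2% of all probe sets were lower and 27% higher. All 21 lie above the median level, where 21 of 37 members were lower against 37.5% of probe sets. The median difference was -0.35 for these 37 members against -0.13 for all probe sets above the median level. Full separation of the groups was seen in 10 members, all of them lower, beside 6.47% of all probe sets and 12.7% of those above the median level. Of the 21 lower members 15 were also called lower under all 3 other scalings, while neither higher call was. Of all probe sets above the median level, 28.6%, 51.3% and 21.4% were lower under quantile normalization, centring on the median and cyclic loess.

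Between the transgenic lines, 18 of 46 members were lower in alb-SREBP-1a∆P and 1 was higher (Slc25a27), beside 21.4% lower and 22.8% higher among all probe sets. Above the median level it was 18 of 37 members against 40.2% of probe sets, which is a share near the background. No member separated these groups fully, where 4.06% of all probe sets and 8.01% of those above the median level were fully separated downward. This comparison depended most on scale, as only Slc25a20, Slc25a21, Slc25a32 and Slc25a40 were called lower under all 3 other scalings as well, and Slc25a27 was called higher under none. The lower share of all probe sets above the median level moved too. It was 21.3% under quantile normalization, 58.4% after centring and 13.9% under cyclic loess. The 3 comparisons share their groups. In total, 28 members were called in at least 1 of them and 18 in none.

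**Figure D1:**
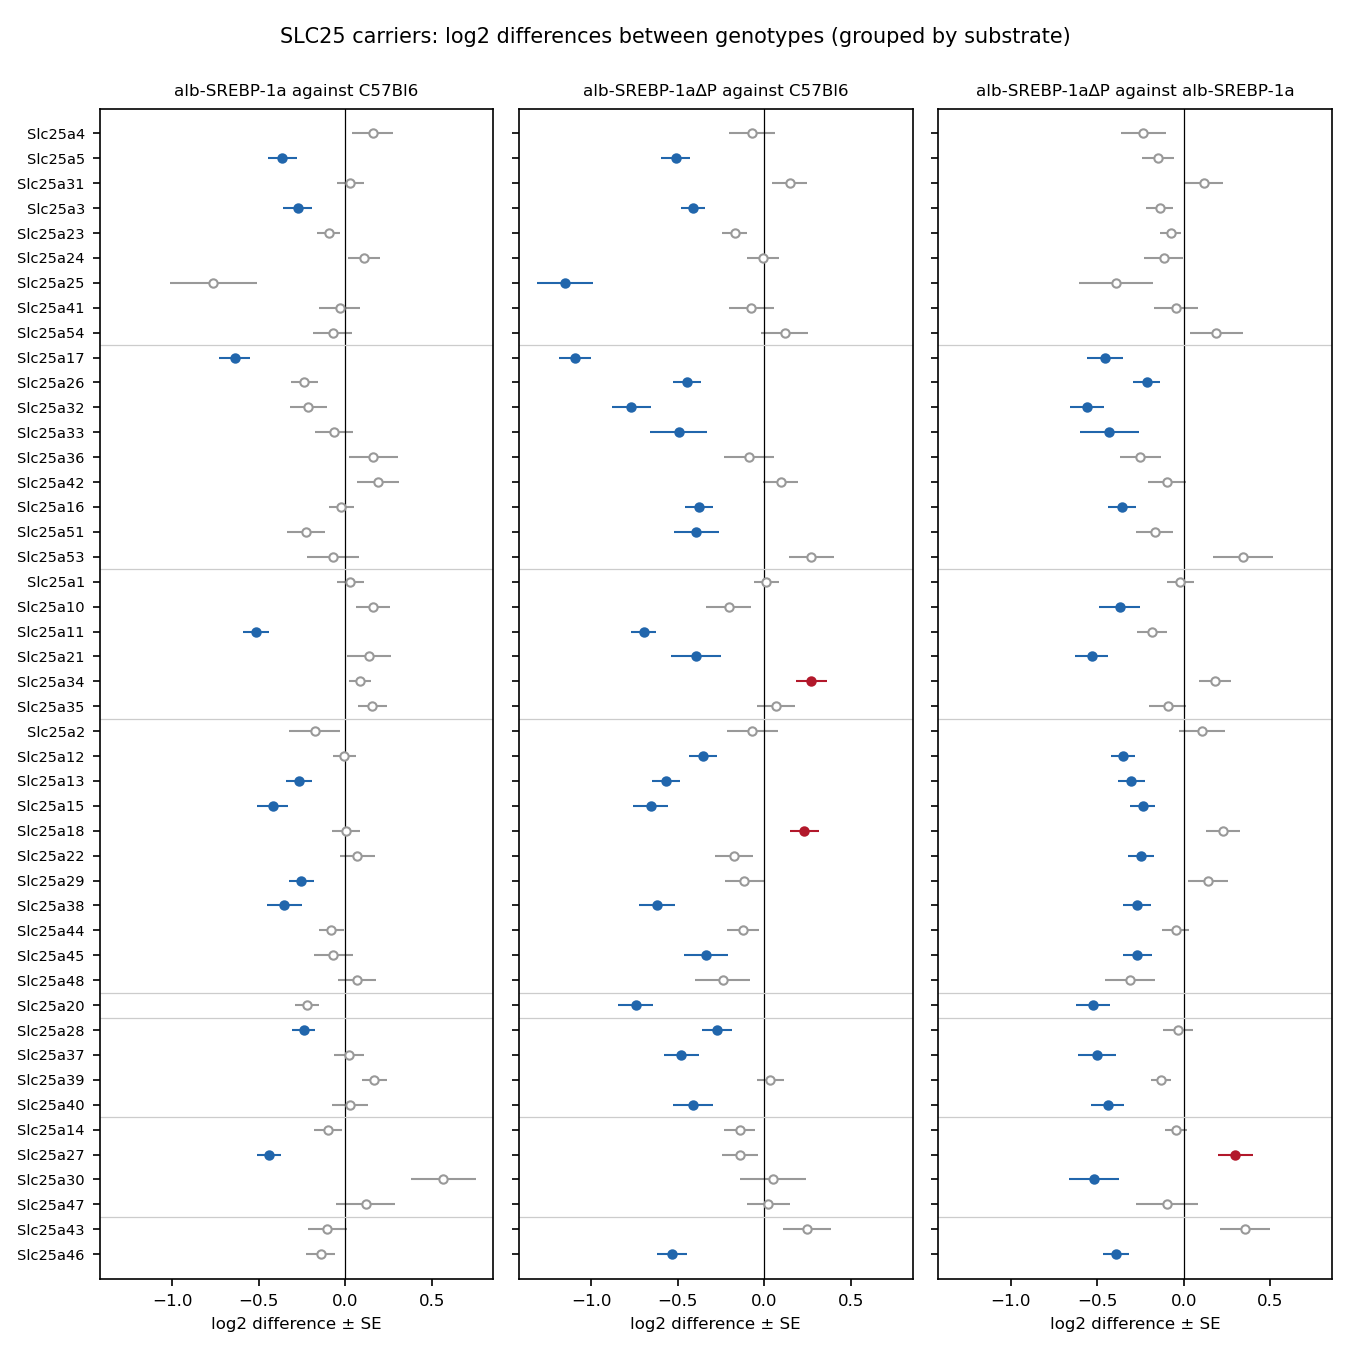
Log2 difference ± standard error of the 46 SLC25 carriers in the 3 comparisons (n = 8 arrays per genotype), grouped by substrate. Blue points are called lower, red points higher and open grey points are not called; blue dominates the middle panel with 21 carriers, of which 15 were also called under 3 other scalings, and the 3 red points were not called under all of them.

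**Figure D2:**
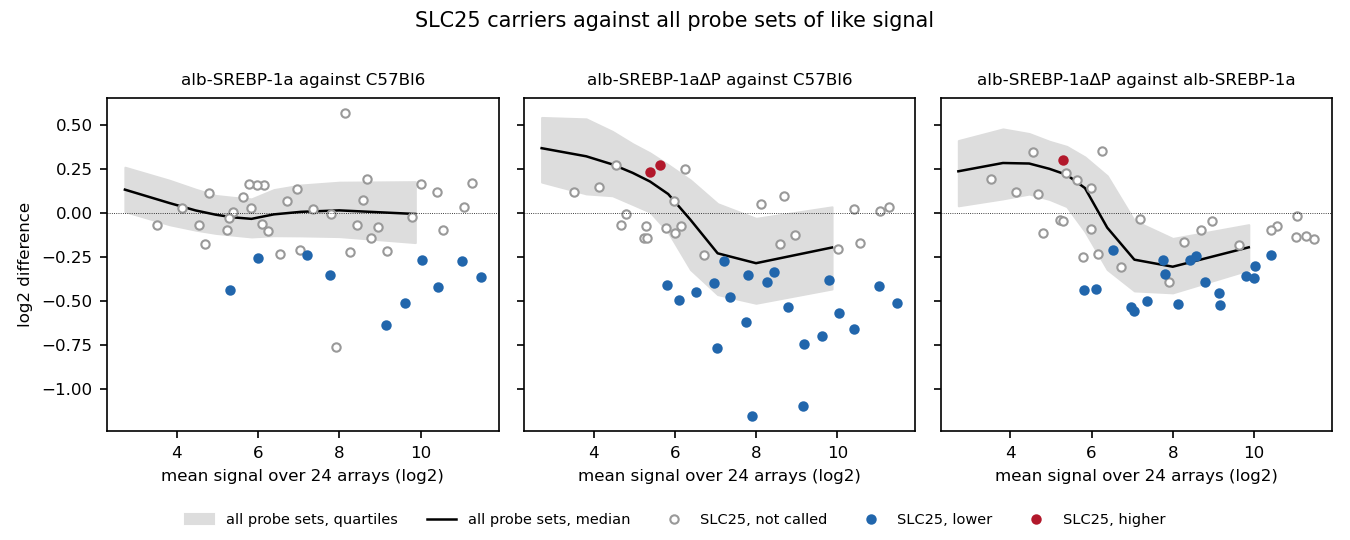
Log2 difference of the 46 carriers (points) against their mean log2 signal, over the median (line) and quartiles (grey) of all probe sets in each decile of signal. In both comparisons with alb-SREBP-1a∆P the line falls from above 0 at low signal to below 0 at high signal, and Slc25a25 and Slc25a17 lie farthest below the grey band against C57Bl6.

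Promoter sequence was available for 36 of the 46 members from RefSeq (build GRCm38.p6), as the 250 bases before each annotated start. The windows were searched on both strands for 7 motifs. The E-box CACGTG was present in 7 of 36 members (19.4%, against 6.86% of 27025 genes), namely Slc25a1, Slc25a13, Slc25a14, Slc25a15, Slc25a31, Slc25a33 and Slc25a36. The CCAAT box CCAAT stood in 18 of 36 (50%, against 37.5%). The SREBP site TCACNCCAC matched only the window of Slc25a18 (2.78%, against 1.22%). The receptor half-site AGGTCA matched 4 members (11.1%, against 15.8%), the NRF1 site 2 (5.56%, against 4.23%), the CRE TGACGTCA 2 (5.56%, against 1.77%) and the D-box TTANGTAA 1 (2.78%, against 2.44%). Of the 16 members with a window that were lower in alb-SREBP-1a∆P, 3 held an E-box and 7 a CCAAT box, against 4 and 11 of the other 20. The motifs do not overlap each other in the windows shown, and a match describes these letters only.

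The windows of the members the results turn on are given 5′ to 3′ in the direction of transcription. Capitals mark a motif match in either direction, so that ATTGG is a CCAAT box on the opposite strand. Slc25a17 and Slc25a11 separated both lines from C57Bl6, Slc25a20 was lower in alb-SREBP-1a∆P under all scalings, Slc25a25 had the largest difference, and Slc25a1 was not called in any comparison. All 5 windows but that of Slc25a20, which held no motif searched, hold a CCAAT box. For Slc25a25 the window shown is 1 of 3 and the one with the CRE and the D-box.
Slc25a17 (minus strand), chr15:81360766-81361015: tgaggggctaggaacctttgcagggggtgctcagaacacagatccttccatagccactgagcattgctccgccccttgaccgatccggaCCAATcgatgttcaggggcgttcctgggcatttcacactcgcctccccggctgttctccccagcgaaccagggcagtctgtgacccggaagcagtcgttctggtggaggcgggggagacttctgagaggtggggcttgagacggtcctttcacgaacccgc
Slc25a11 (minus strand), chr11:70647040-70647289: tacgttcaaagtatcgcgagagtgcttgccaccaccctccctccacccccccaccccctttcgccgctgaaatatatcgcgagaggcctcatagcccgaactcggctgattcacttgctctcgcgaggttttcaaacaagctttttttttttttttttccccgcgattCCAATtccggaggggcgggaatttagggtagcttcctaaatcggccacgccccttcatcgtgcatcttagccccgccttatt
Slc25a20 (plus strand), chr9:108661886-108662135: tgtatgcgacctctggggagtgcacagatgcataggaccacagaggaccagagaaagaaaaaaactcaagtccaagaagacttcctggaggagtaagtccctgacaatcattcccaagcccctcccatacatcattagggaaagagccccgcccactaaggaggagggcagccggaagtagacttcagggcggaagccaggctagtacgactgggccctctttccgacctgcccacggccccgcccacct
Slc25a25 (minus strand), chr2:32424067-32424316: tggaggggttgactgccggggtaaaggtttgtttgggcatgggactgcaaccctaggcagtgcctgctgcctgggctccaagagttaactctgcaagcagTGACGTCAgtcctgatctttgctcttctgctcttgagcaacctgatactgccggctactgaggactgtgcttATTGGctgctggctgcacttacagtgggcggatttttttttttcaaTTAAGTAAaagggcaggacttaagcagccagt
Slc25a1 (minus strand), chr16:17928220-17928469: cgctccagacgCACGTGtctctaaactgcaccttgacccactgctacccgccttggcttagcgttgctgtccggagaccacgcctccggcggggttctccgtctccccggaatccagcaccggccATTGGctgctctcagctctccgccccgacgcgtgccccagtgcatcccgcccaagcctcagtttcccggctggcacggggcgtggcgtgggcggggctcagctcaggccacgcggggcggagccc

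Among the carriers of adenine nucleotides and phosphate, 2 of 9 were lower in alb-SREBP-1a and 3 of 9 in the phosphorylation-deficient line. Of probe sets above the median level 7.1% and 37.5% were lower, and of all probe sets 3.98% and 20.2%. Slc25a24, Slc25a31, Slc25a41 and Slc25a54 lie below the median level, so that neither share fits the whole group. Slc25a5, the ADP/ATP translocase of most tissues, had log2 signals of 11.51, 11.76 and 11.96 (lowest, median and highest) in C57Bl6, of 11.10, 11.41 and 11.66 in alb-SREBP-1a, and of 10.996, 11.26 and 11.50 in the phosphorylation-deficient line. All alb-SREBP-1a∆P arrays lay below all C57Bl6 arrays, as did 6 of 8 alb-SREBP-1a arrays. The difference to C57Bl6 was -0.36 ± 0.08 in alb-SREBP-1a (adjusted p = 0.00833) and -0.51 ± 0.09 in the phosphorylation-deficient line (adjusted p = 0.000147). The other 2 Slc25a5 probe sets gave -0.35 and -0.30, and -0.51 and -0.46, but all 3 list the same transcripts and are no independent measurements.

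Slc25a3, which imports the phosphate used by ATP synthase, followed with -0.27 ± 0.08 in alb-SREBP-1a (adjusted p = 0.044) and -0.41 ± 0.07 in the phosphorylation-deficient line (adjusted p = 0.000173). Its medians were 11.27 in C57Bl6, 11.004 with the alb-SREBP-1a transgene and 10.87 in alb-SREBP-1a∆P, and only the alb-SREBP-1a∆P arrays stood clear of C57Bl6. The alb-SREBP-1a call was lost without alb-SREBP-1a replicates 1 and 2, after centring each array on its median and with the replicate block. Slc25a4, the ADP/ATP translocase of muscle, was dim in liver with medians of 6.13, 6.19 and 5.96, and its groups overlapped. It was not called in any comparison, with 95% intervals of -0.09 to 0.41 in alb-SREBP-1a and -0.35 to 0.21 in alb-SREBP-1a∆P against C57Bl6.

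Slc25a25, a calcium-regulated carrier that exchanges ATP-Mg for phosphate, showed the largest difference of all members. Its signals were 7.99, 8.45 and 9.34 in C57Bl6, 6.53, 7.89 and 8.59 in alb-SREBP-1a and 7.17, 7.43 and 7.56 in the phosphorylation-deficient line. The spread was wide in the first 2 genotypes and narrow in alb-SREBP-1a∆P, whose arrays all lay below C57Bl6 but inside the range of alb-SREBP-1a. The fall in alb-SREBP-1a∆P was -1.15 ± 0.16 (2.22-fold lower, adjusted p = 3.27e-05). In alb-SREBP-1a the difference of -0.76 ± 0.25 was not called (adjusted p = 0.0632), although it passed under several other settings. The other ATP-Mg carriers Slc25a23, Slc25a24 and Slc25a41 and the testis ADP/ATP carrier Slc25a31, together with Slc25a54, were not called in any comparison. Under other settings, Slc25a23 was called lower in alb-SREBP-1a∆P against C57Bl6 by the methods' t-test, the joint fit, the variance trend, without dim probe sets and after centring, and Slc25a24 under quantile normalization and cyclic loess.

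**Figure D3:**
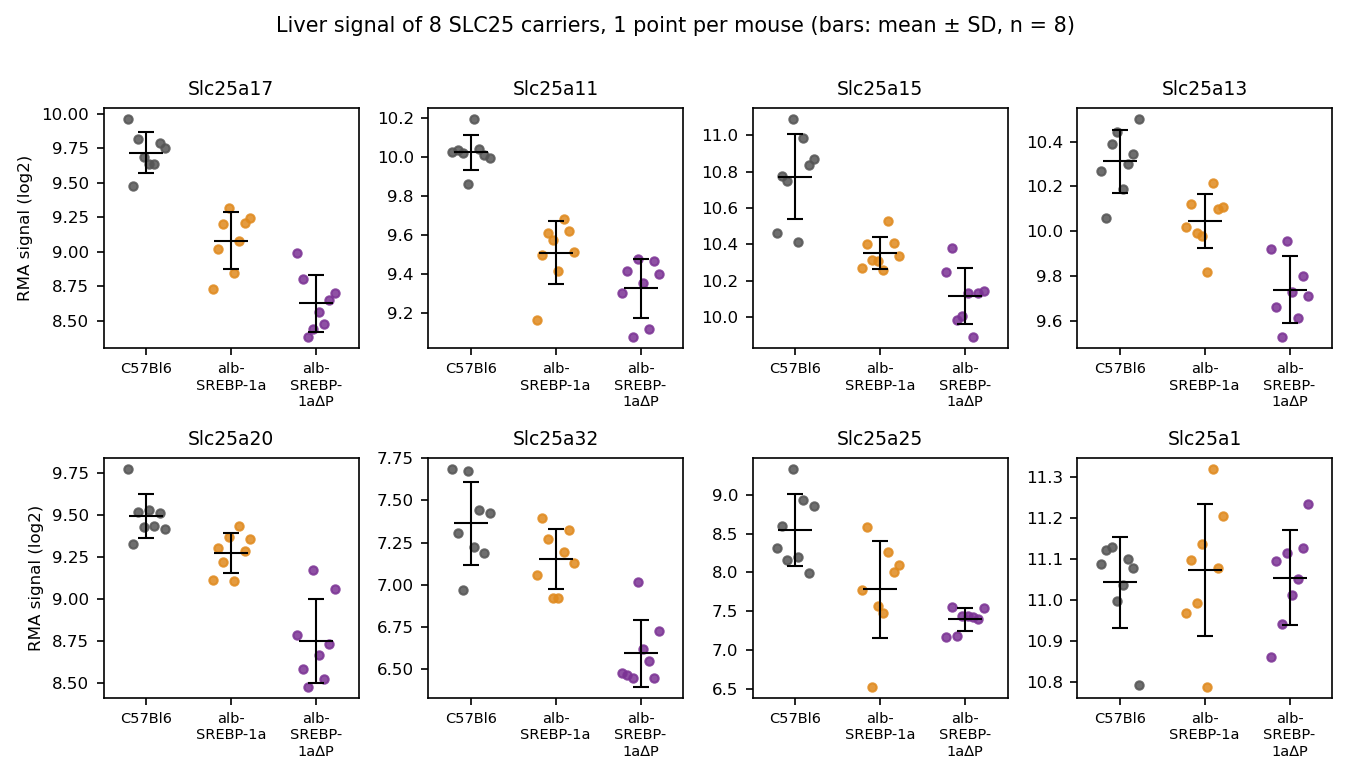
Log2 RMA signal of 8 carriers in each mouse (points) with mean ± SD (bars, n = 8 per genotype). Slc25a17 and Slc25a11 are lower on every transgenic array than on every C57Bl6 array, Slc25a25 is spread in C57Bl6 and alb-SREBP-1a only, and Slc25a1 overlaps across all genotypes.

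Of the nucleotide and cofactor carriers, 1 of 9 was lower in alb-SREBP-1a and 6 of 9 in alb-SREBP-1a∆P against C57Bl6, beside the same 7.1% and 37.5% of probe sets. Slc25a17, the peroxisomal carrier of coenzyme A, FAD and NAD, was the member with the smallest adjusted p. Its signals were 9.48, 9.72 and 9.96 in C57Bl6, 8.73, 9.14 and 9.32 in alb-SREBP-1a and 8.38, 8.61 and 8.99 in the phosphorylation-deficient line. Neither transgenic group overlapped C57Bl6, whereas the transgenic groups overlapped each other. The difference to C57Bl6 was -0.64 ± 0.09 (1.56-fold lower, adjusted p = 0.000259) in alb-SREBP-1a and -1.09 ± 0.09 (2.13-fold lower, adjusted p = 2.7e-07) in the phosphorylation-deficient line. Between the lines it was -0.45 ± 0.10 (adjusted p = 0.00299), a call that was lost under quantile normalization and cyclic loess.

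Slc25a32, which carries folate and FAD into the matrix, fell in alb-SREBP-1a∆P. Its signals were 6.97, 7.36 and 7.69 in C57Bl6, 6.92, 7.16 and 7.39 in alb-SREBP-1a and 6.45, 6.51 and 7.02 in the phosphorylation-deficient line. All but 1 of the alb-SREBP-1a∆P arrays lay below both other groups. The difference was -0.77 ± 0.11 against C57Bl6 (adjusted p = 4.18e-05) and -0.56 ± 0.10 against alb-SREBP-1a (adjusted p = 0.00053), and both calls were kept under the 3 other scalings. In alb-SREBP-1a itself Slc25a32 was not called (-0.21 ± 0.11, adjusted p = 0.229).

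The pyrimidine nucleotide carriers went apart in their calls. Slc25a33 fell by 0.50 ± 0.16 in alb-SREBP-1a∆P against C57Bl6 (adjusted p = 0.0204), with 5 of 8 arrays below all C57Bl6 arrays, and its relative Slc25a36 was not called (-0.09 ± 0.15, adjusted p = 0.636). For Slc25a36 the second, dimmer probe set gave 0.19 ± 0.13. Slc25a16, linked to coenzyme A in the matrix, was lower, at -0.38 ± 0.08 (adjusted p = 0.00107). Slc25a26, the S-adenosylmethionine carrier, and Slc25a51, the mitochondrial NAD carrier, are named here because they complete the group. They were lower in alb-SREBP-1a∆P, at -0.45 ± 0.08 (adjusted p = 0.000309) and -0.39 ± 0.13 (adjusted p = 0.0189). The Slc25a16 call was lost under cyclic loess, and the Slc25a51 call under cyclic loess and quantile normalization.

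Carriers of di- and tricarboxylates did not move as a group. In alb-SREBP-1a 1 of 6 was lower, beside 7.1% of probe sets above the median level. In alb-SREBP-1a∆P 2 were lower and 1 higher, near the 37.5% of such probe sets lower there. Slc25a1 exports citrate, the source of cytosolic acetyl-CoA for fatty acid and cholesterol synthesis. Its signals were 10.79, 11.08 and 11.13 in C57Bl6, 10.79, 11.09 and 11.32 in alb-SREBP-1a and 10.86, 11.07 and 11.23 in the phosphorylation-deficient line. The 3 groups lay on top of each other. The difference to C57Bl6 was 0.03 in alb-SREBP-1a (95% interval -0.13 to 0.19) and 0.01 in the phosphorylation-deficient line (-0.14 to 0.16), and neither was called. Acly, which cleaves the exported citrate, fell in both lines, by 0.58 ± 0.13 in alb-SREBP-1a (adjusted p = 0.00905) and by 0.56 ± 0.13 in the phosphorylation-deficient line (adjusted p = 0.00182).

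Slc25a11, the 2-oxoglutarate/malate carrier of the malate-aspartate shuttle, was the strongest member of this group. Its signals were 9.86, 10.02 and 10.20 in C57Bl6, 9.16, 9.54 and 9.68 in alb-SREBP-1a and 9.08, 9.38 and 9.48 in the phosphorylation-deficient line. Both transgenic groups lay entirely below C57Bl6 and overlapped each other widely. The difference was -0.51 ± 0.07 (adjusted p = 0.000249) and -0.70 ± 0.07 (adjusted p = 2.28e-06), and both calls held under the 3 other scalings. Between the lines it was not called (-0.18 ± 0.09, adjusted p = 0.09).

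Slc25a10, the dicarboxylate carrier, was not called against C57Bl6 in either line (0.16 ± 0.10 and -0.21 ± 0.13), but it fell by 0.37 ± 0.12 between the lines (adjusted p = 0.0187), unless quantile normalization or cyclic loess was used. Slc25a21, the 2-oxodicarboxylate carrier, fell in alb-SREBP-1a∆P relative to each other genotype, with differences of -0.40 ± 0.14 against C57Bl6 (adjusted p = 0.032) and -0.53 ± 0.10 against alb-SREBP-1a (adjusted p = 0.00071). The first of these was lost under quantile normalization and cyclic loess and with the replicate block. Slc25a34, a dim relative of unsettled substrate, was higher in alb-SREBP-1a∆P by 0.27 ± 0.09 (adjusted p = 0.0184), with no call under any other scaling. Slc25a35 was not called in any comparison.

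Of the amino acid carriers, 4 of 11 were lower in alb-SREBP-1a, and 5 lower and 1 higher in the phosphorylation-deficient line, again beside 7.1% and 37.5% lower among the brighter probe sets. Slc25a13 (citrin) is the aspartate/glutamate carrier of liver and supplies aspartate to the urea cycle and the malate-aspartate shuttle. Its signals were 10.06, 10.32 and 10.50 in C57Bl6, 9.82, 10.06 and 10.22 in alb-SREBP-1a and 9.53, 9.72 and 9.96 in the phosphorylation-deficient line. Only the alb-SREBP-1a∆P group lay entirely below C57Bl6. The alb-SREBP-1a difference of -0.27 ± 0.07 was called (adjusted p = 0.0262) but lost without alb-SREBP-1a replicates 1 and 2, after centring and with the replicate block. In the phosphorylation-deficient line the difference to C57Bl6 was -0.57 ± 0.08 (1.49-fold lower, adjusted p = 3.62e-05). Its relative Slc25a12, the form of muscle and brain, had medians of 7.97, 7.93 and 7.56. It was not called in alb-SREBP-1a (95% interval -0.14 to 0.13) and fell by 0.35 ± 0.08 in alb-SREBP-1a∆P (adjusted p = 0.00235), a call lost under quantile normalization and cyclic loess.

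Slc25a15 brings ornithine into the matrix for the urea cycle. Its signals were 10.42, 10.81 and 11.09 in C57Bl6, 10.26, 10.33 and 10.53 in alb-SREBP-1a and 9.89, 10.13 and 10.38 in the phosphorylation-deficient line. All alb-SREBP-1a∆P arrays and all but 1 of the alb-SREBP-1a arrays lay below C57Bl6. The differences were -0.42 ± 0.09 (adjusted p = 0.00587) and -0.66 ± 0.10 (adjusted p = 7.94e-05). Slc25a38, the glycine carrier needed for haem synthesis, was lower, at -0.35 ± 0.10 (adjusted p = 0.0369) in alb-SREBP-1a and -0.62 ± 0.10 (adjusted p = 0.000148) in the phosphorylation-deficient line. The former was lost without alb-SREBP-1a replicates 1 and 2 and after centring. Slc25a29, a carrier of basic amino acids, was called lower in alb-SREBP-1a (-0.25 ± 0.07, adjusted p = 0.0307). It gave -0.12 ± 0.11 in alb-SREBP-1a∆P, where it was not called. Its call was also lost without alb-SREBP-1a replicates 1 and 2, in the joint fit and with the replicate block.

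The glutamate carriers were not called in alb-SREBP-1a against C57Bl6. Slc25a18 was called higher in alb-SREBP-1a∆P by 0.23 ± 0.08 (adjusted p = 0.031), a call lost under all 3 other scalings and without alb-SREBP-1a∆P replicate 4. Slc25a22 gave -0.18 ± 0.11 against C57Bl6, where it was not called. It was called lower against alb-SREBP-1a (-0.25 ± 0.08, adjusted p = 0.0163), but this difference turned to 0.033 under cyclic loess. Slc25a45, named to complete the group, was called lower in alb-SREBP-1a∆P against C57Bl6 (-0.34 ± 0.13, adjusted p = 0.0391), a call lost without alb-SREBP-1a∆P replicate 4, with array weights and under quantile normalization and cyclic loess. Slc25a44, a carrier of branched-chain amino acids, and Slc25a2 and Slc25a48 were not called in any comparison.

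Slc25a20 exchanges acylcarnitines for carnitine and is the entry of long-chain fatty acids to mitochondrial oxidation. Its signals were 9.33, 9.47 and 9.78 in C57Bl6, 9.11, 9.30 and 9.43 in alb-SREBP-1a and 8.48, 8.70 and 9.17 in the phosphorylation-deficient line. The alb-SREBP-1a∆P arrays all lay below C57Bl6, and 7 of 8 lay below all alb-SREBP-1a arrays. It fell in alb-SREBP-1a∆P by 0.74 ± 0.10 in log2 against C57Bl6 (1.68-fold lower, adjusted p = 2.52e-05) and by 0.52 ± 0.10 against alb-SREBP-1a (adjusted p = 0.00092), under all scalings. In alb-SREBP-1a the difference of -0.22 ± 0.07 was not called (adjusted p = 0.0578), but it was called lower by the methods' t-test, under quantile normalization and cyclic loess, without dim probe sets and with a variance trend. Cpt1a, the first enzyme of the carnitine shuttle, was not called in any comparison (-0.02 ± 0.10 in alb-SREBP-1a∆P against C57Bl6). Cpt2, which acts behind Slc25a20 in the matrix, fell by 0.18 ± 0.07 in alb-SREBP-1a∆P (adjusted p = 0.047).

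Of the 4 iron and glutathione carriers, 3 were lower in alb-SREBP-1a∆P, among them both iron carriers, beside 37.5% of probe sets above the median level. The third, Slc25a40, rests on 1 of its 2 probe sets. Slc25a37 (mitoferrin-1), known from erythroid cells, had medians of 7.47 in C57Bl6, of 7.52 with the alb-SREBP-1a transgene and of 7.03 in alb-SREBP-1a∆P, and fell there by 0.48 ± 0.10 (adjusted p = 0.00103). Slc25a28 (mitoferrin-2), the form of other tissues, had medians of 7.35, 7.14 and 7.13 and was lower in both lines, at -0.24 ± 0.06 (adjusted p = 0.024) and -0.27 ± 0.09 (adjusted p = 0.0153). For Slc25a28 7 of 8 arrays of each line lay below all C57Bl6 arrays, and for Slc25a37 this held in alb-SREBP-1a∆P. The alb-SREBP-1a call of Slc25a28 was lost in the joint fit and with the replicate block, and its alb-SREBP-1a∆P call under quantile normalization and cyclic loess. Of the erythroid markers 2 were found, and they went opposite ways. The bright Alas2 was not called in alb-SREBP-1a∆P (-0.19 ± 0.08, adjusted p = 0.062) and the dim Epb42 was called higher (0.37 ± 0.13, adjusted p = 0.0269), so that their summed signal, 694.6 to 963.4 in C57Bl6 and 631.7 to 831.4 in alb-SREBP-1a∆P, is nearly that of Alas2 alone. Epb42 lies in decile 3 of signal, where 40.5% of all probe sets were higher in alb-SREBP-1a∆P. The part of the erythroid markers in the Slc25a37 values was not tested.

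Slc25a39, which imports glutathione, was bright and not called against C57Bl6 in either line, with medians of 11.22, 11.34 and 11.26. Its relative Slc25a40 fell by 0.41 ± 0.12 in alb-SREBP-1a∆P (adjusted p = 0.00783). The dimmer Slc25a40 probe set, however, gave 0.25 ± 0.11 (adjusted p = 0.0805), so that the probe sets of this gene disagreed, and the mean over both was not called. Between the lines neither Slc25a39 nor Slc25a36 was called, but Slc25a39 was called lower by the methods' t-test, with a variance trend, without dim probe sets and after centring, and Slc25a36 under quantile normalization and after centring.

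Of the relatives of uncoupling proteins, 1 of 4 was lower in alb-SREBP-1a, and none was called in alb-SREBP-1a∆P against C57Bl6 on the deposited scale. Under all 3 other scalings, however, Slc25a14 and Slc25a27 were both called lower there. Slc25a27 (UCP4), a carrier known from brain, was dim. Its signals were 5.26, 5.54 and 5.67 in C57Bl6, 4.81, 5.09 and 5.14 in alb-SREBP-1a and 4.88, 5.43 and 5.64 in the phosphorylation-deficient line. Only alb-SREBP-1a lay entirely below C57Bl6 (-0.44 ± 0.07, adjusted p = 0.000552). The rise of 0.30 ± 0.10 between the lines (adjusted p = 0.0272) was lost under all 3 other scalings and without alb-SREBP-1a replicates 1 and 2. Slc25a30 (KMCP1), named after its values were seen, was not called in alb-SREBP-1a (0.57 ± 0.19, adjusted p = 0.0627), where 4 other settings called it higher, and fell by 0.52 ± 0.15 from there to alb-SREBP-1a∆P (adjusted p = 0.0098), except under quantile normalization and cyclic loess. Slc25a47, a liver-enriched carrier, ranged from 9.76 to 11.07 in alb-SREBP-1a and was not called in any comparison.

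Slc25a46, which acts in the dynamics of the outer membrane, had signals of 8.72, 9.04 and 9.33 in C57Bl6, 8.60, 8.87 and 9.04 in alb-SREBP-1a and 8.33, 8.44 and 8.71 in the phosphorylation-deficient line. The alb-SREBP-1a∆P arrays lay just below C57Bl6 without overlap. Its difference was -0.53 ± 0.09 against C57Bl6 (adjusted p = 0.000116). The remaining members not called in any comparison were Slc25a14, Slc25a42, Slc25a43 and Slc25a53, all named to complete the count. Slc25a14 was called lower in alb-SREBP-1a∆P against both other genotypes under all 3 other scalings. Slc25a43 was called higher between the lines in the joint fit, with the replicate block, with array weights and without dim probe sets, and against C57Bl6 with array weights. Slc25a42, a coenzyme A carrier, was called higher in alb-SREBP-1a∆P against C57Bl6 under quantile normalization and cyclic loess.

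To compare related carriers directly, the difference of both signals was formed within each array and compared between genotypes by a two-sided exact permutation test, with p adjusted over 18 tests (6 pairs in 3 comparisons). Slc25a13 moved against Slc25a12 by -0.26 ± 0.05 in alb-SREBP-1a (exact permutation, adjusted p = 0.00466) and by -0.22 ± 0.05 in the phosphorylation-deficient line (exact permutation, adjusted p = 0.00466), so that the liver form of the aspartate/glutamate carrier was lower relative to the other form in both lines. Both were kept under the other scalings and without the doubtful arrays. Slc25a5 moved against Slc25a4 by -0.52 ± 0.12 in alb-SREBP-1a (exact permutation, adjusted p = 0.00466), which was kept as well, while its change in alb-SREBP-1a∆P (-0.44 ± 0.17, exact permutation, adjusted p = 0.0374) was lost under quantile normalization and cyclic loess.

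The mitoferrins took different courses. Slc25a28 moved against Slc25a37 by -0.26 ± 0.10 in alb-SREBP-1a against C57Bl6 (exact permutation, adjusted p = 0.0302) and by 0.47 ± 0.12 between the lines (exact permutation, adjusted p = 0.00727). In alb-SREBP-1a∆P against C57Bl6 this pair did not pass on all arrays (0.21 ± 0.10, exact permutation, adjusted p = 0.0909). It passed without alb-SREBP-1a∆P replicate 4 (0.26 ± 0.09, exact permutation, adjusted p = 0.0232). Slc25a39 moved against Slc25a40 by 0.45 ± 0.14 in alb-SREBP-1a∆P against C57Bl6 (exact permutation, adjusted p = 0.0232), with the reservation on the Slc25a40 probe sets. The change of Slc25a22 against Slc25a18 in alb-SREBP-1a∆P (-0.41 ± 0.13, exact permutation, adjusted p = 0.0232) came to -0.03 under quantile normalization and 0.0222 under cyclic loess. For Slc25a33 against Slc25a36 no comparison passed on all arrays (-0.41 ± 0.20 in alb-SREBP-1a∆P against C57Bl6, exact permutation, adjusted p = 0.0909). Without alb-SREBP-1a∆P replicate 4 this difference to C57Bl6 passed (-0.50 ± 0.20, exact permutation, adjusted p = 0.0232).

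**Figure D4:**
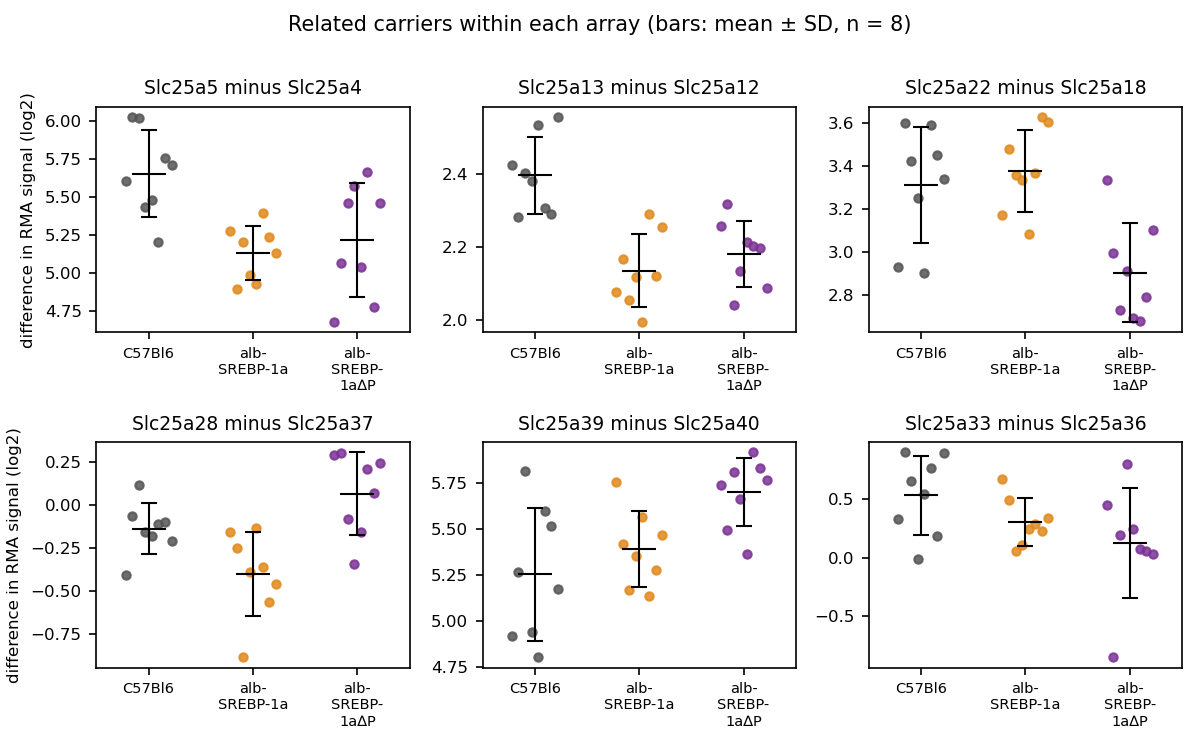
Difference of log2 signals between 2 related carriers within each array (points), with mean ± SD (bars, n = 8 per genotype). Slc25a13 minus Slc25a12 is lower in both transgenic lines than in C57Bl6. Slc25a28 minus Slc25a37 is lowest in alb-SREBP-1a and highest in alb-SREBP-1a∆P, where its difference to C57Bl6 passed only without alb-SREBP-1a∆P replicate 4. The fall of Slc25a22 minus Slc25a18 in alb-SREBP-1a∆P was lost under quantile normalization and turned to 0.0222 under cyclic loess.

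Genes that work with the carriers were taken from lists of general knowledge and read in the same fit. Carriers reach the inner membrane through the TOM complex, the small TIM chaperones and the TIM22 complex. Of 12 genes of this route, limma called 0 in alb-SREBP-1a, with 3 lower and 1 higher at an unadjusted p under 0.05. In alb-SREBP-1a∆P 8 were lower against C57Bl6, beside 37.5% of probe sets above the median level. Most of the 12 lie in deciles 8 and 9 of signal, where 46.1% and 53.3% of all probe sets were lower. The small chaperones Timm9 and Timm8a1 fell in alb-SREBP-1a∆P by 1.01 ± 0.14 (adjusted p = 3.48e-05) and by 1.00 ± 0.08 (adjusted p = 1.24e-07). The receptor Tomm70a was lower, at -0.61 ± 0.09, and so was the channel Timm22, at -0.22 ± 0.09, while Timm10, the partner of Timm9, was not called (-0.03 ± 0.12). Under cyclic loess 5 of the 12 were lower, beside 21.4% of probe sets above the median level.

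Of probe sets above the median level, 37.5% were lower in alb-SREBP-1a∆P against C57Bl6. Of 16 genes of haem synthesis and iron-sulfur assembly, 10 were lower there, beside the iron and glycine carriers. They included Cpox (-0.67 ± 0.11, adjusted p = 0.000167), which acts in the intermembrane space, and the cysteine desulfurase Nfs1 (-0.66 ± 0.10, adjusted p = 8.23e-05). Alas1, the rate-limiting enzyme of haem synthesis in liver, was not called (-0.41 ± 0.39). In alb-SREBP-1a 2 of the 16 were higher (Iscu and Hscb) and 1 was lower (Isca1), beside 6.77% and 3.98% of all probe sets. Most of the 16 lie in deciles 8 to 10 of signal. In these deciles 11.7% to 14.1% of probe sets were higher and 6.1% to 14.5% lower in alb-SREBP-1a, and 46.1% to 53.3% were lower in alb-SREBP-1a∆P.

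Among other transporters of the mitochondrial membranes, 2 of 15 were lower in alb-SREBP-1a and 8 in the phosphorylation-deficient line. Of probe sets above the median level it was 7.1% and 37.5%. Sfxn1, the serine carrier, had signals of 10.15, 10.37 and 10.54 in C57Bl6, 9.41, 9.64 and 9.88 in alb-SREBP-1a and 9.10, 9.44 and 9.73 in the phosphorylation-deficient line. Both transgenic groups lay far below C57Bl6. The difference was -0.72 ± 0.08 (adjusted p = 1.45e-05) and -0.91 ± 0.09 (adjusted p = 1.36e-06), larger in alb-SREBP-1a than that of any called SLC25 member. Mcu, the pore of the calcium uniporter, and Mpc1 of the pyruvate carrier were lower in alb-SREBP-1a∆P, at -0.55 ± 0.12 (adjusted p = 0.00165) and -0.36 ± 0.10 (adjusted p = 0.00773). Of 4 genes with an SLC25 fold but another symbol, Mtch1 and Mtch2 were lower in alb-SREBP-1a∆P (-0.29 and -0.54) and Ucp3, an uncoupling protein, was higher (0.51 ± 0.17, adjusted p = 0.0192). Ucp3 lies in decile 4 of signal, where 37.1% of all probe sets were higher, and Mtch1 and Mtch2 lie in decile 10, where 47.2% were lower.

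The enzymes around the carriers of the malate-aspartate shuttle and the urea cycle were lower as well in part. Of 4 shuttle enzymes 2 were lower in alb-SREBP-1a and 3 in the phosphorylation-deficient line, and of 5 urea cycle enzymes 3 and 4. Asl, which splits argininosuccinate, was lower, at -0.47 ± 0.09 and -0.75 ± 0.11, while Otc, which uses the ornithine delivered by Slc25a15, was not called in either line (-0.01 ± 0.07 and -0.07 ± 0.06). Of 10 partners of ADP/ATP exchange, 2 and 7 were lower and, in alb-SREBP-1a∆P, Ckmt1 was higher (0.26 ± 0.08, adjusted p = 0.0155), and Atp5a1 of ATP synthase showed -0.41 ± 0.07 and -0.62 ± 0.07. Ckmt1 lies in decile 5 of signal, where 31.5% of all probe sets were higher in alb-SREBP-1a∆P. Of the 4 carnitine shuttle enzymes limma called 0 in alb-SREBP-1a (1 higher at an unadjusted p under 0.05), and 3 were lower in alb-SREBP-1a∆P, while of 4 citrate export enzymes 1 and 2 were lower. Most genes of these lists lie in decile 10 of signal. Against C57Bl6, 14.5% of all probe sets of this decile were lower with the alb-SREBP-1a transgene. With the phosphorylation-deficient transgene it was 47.2%.

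**Figure D5:**
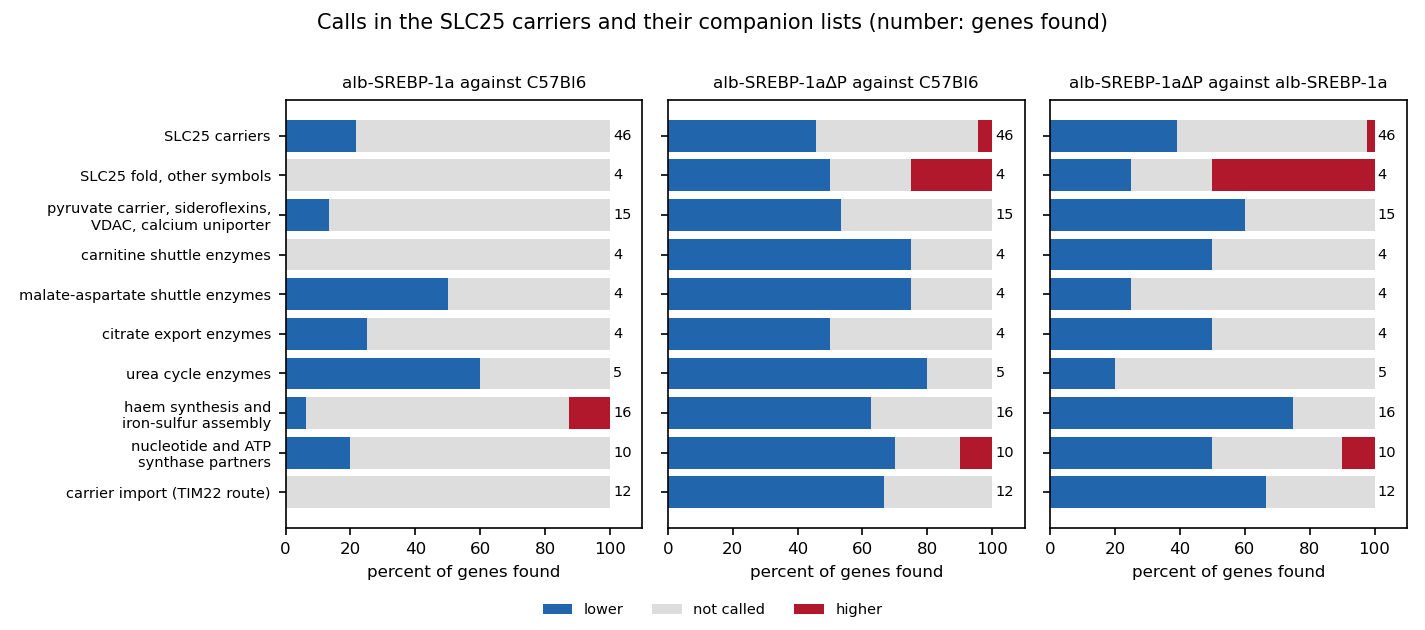
Percent of genes called lower (blue), not called (grey) and higher (red) among the 46 SLC25 carriers and in 9 lists of companion genes, with the number of genes found beside each bar. The import list has 0 of 12 genes called in alb-SREBP-1a against C57Bl6 and 8 of 12 lower in alb-SREBP-1a∆P, of which cyclic loess leaves 5. Of all probe sets above the median level 37.5% were lower in alb-SREBP-1a∆P, and 21.4% under cyclic loess.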

How the data were processed

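Total RNA of liver (150 ng per array) was labelled and hybridised to Affymetrix Mouse Gene 1.0 ST arrays. The deposited values are log2 signals from the authors' RMA run, for which the submitters' notes name Expression Console (version 1.1 in the methods). They cover 35556 probe sets on 24 arrays without a missing value and range from 0.83 to 15.0. No source used here gives further RMA settings or the annotation build. Genes were named from the platform annotation, in which 21789 probe sets carry 1 symbol, 1621 several and 12146 none. A gene was read from its brightest probe set.

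Each comparison was fitted on 8 against 8 arrays with limma 3.58.1 in R 4.3.3 (lmFit and eBayes), and p was adjusted by Benjamini-Hochberg over all probe sets, with a threshold of 0.05. A p-value here reflects the variation among these mice, and precision is limited by the number of arrays. The fit was tested on simulated data before use. Members, lists and paralogue pairs were chosen with earlier results of these data known. Named were the up to 10 called members of smallest adjusted p per comparison and direction, the best-known carriers of each substrate, and any member alone in its direction. Other members were named to account for all 46, or after their values were seen.

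Other settings were a replicate block, a joint fit of 24 arrays, quantile normalization, cyclic loess, centring on the median, dropping the dimmer probe sets, a variance trend, array weights, the mean over probe sets, the methods' t-test and their threshold, and leaving out alb-SREBP-1a replicates 1 and 2 or alb-SREBP-1a∆P replicate 4. On the main axis of variation over all arrays (the first principal component), alb-SREBP-1a∆P replicate 4 stood apart, at 15.69 against 54.97 to 90.34. The alb-SREBP-1a replicates 1 and 2 lay at -19.56 and -35.41, the others of that line at -28.33 to 8.965. For pairs and companion lists the scalings and left-out arrays were added after seeing the data. The deviations of same-numbered arrays of different genotypes had correlations from -0.12 to 0.28. In the 3 comparisons 2, 1 and 2 of 8 pairs exceeded 0.1. An array correlated best with its own number in 2, 3 and 2 of 8 cases. Figures were drawn with matplotlib in Python. Of the listed companion and marker genes, 18 had no probe set of a single symbol.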

Additional observations from a re-analysis of the deposited data

Results flagged for a closer look

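Of 138 groups of 8 arrays (46 members in 3 genotypes), 6 held an array set apart from its neighbours by Dixon's test at 95%, where chance gives about 6.9. Slc25a1 was low at 10.79 in C57Bl6 replicate 8. Slc25a20 was high at 9.78 in C57Bl6 replicate 1. Slc25a27 was low at 4.81 and Slc25a46 low at 8.60 in alb-SREBP-1a replicate 1. In alb-SREBP-1a∆P, Slc25a43 was low at 5.68 in replicate 1 and Slc25a44 high at 9.30 in replicate 4.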

How the results depend on the processing

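The members lower against C57Bl6 in alb-SREBP-1a (10) numbered 7 to 13 under the alternatives, except 2 under the methods' threshold of an unadjusted p under 0.05 and a 1.5-fold change. The 21 lower in alb-SREBP-1a∆P numbered 18 to 27, except 7 under that threshold. The 18 lower between the lines came to 8 under quantile normalization, 29 after centring on the median, 6 under cyclic loess and 0 under the methods' threshold. Under these 3 scalings the lower share of all probe sets above the median level moved as well. It was 9.68%, 5.64% and 8.86% in alb-SREBP-1a and 28.6%, 51.3% and 21.4% in alb-SREBP-1a∆P against C57Bl6. Between the lines it was 21.3%, 58.4% and 13.9%. Higher calls were few. In alb-SREBP-1a, Slc25a30 made 1 with all 24 arrays in 1 fit, with the replicate block, without dim probe sets and with array weights. In alb-SREBP-1a∆P the 2 higher came to 1 under quantile normalization, where it was another gene (Slc25a42), to 2 others under cyclic loess (Slc25a39 and Slc25a42), to 3 with array weights, to 1 on brighter probe sets only and without alb-SREBP-1a∆P replicate 4, and to 0 after centring and under the methods' threshold. Between the lines the 1 higher came to 3 with all 24 arrays, with the replicate block and with array weights, and to 0 under quantile normalization, centring and the methods' threshold.

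Quantile normalization, centring and cyclic loess moved the array-wide median difference between alb-SREBP-1a∆P and C57Bl6 by -0.14, -0.16 and -0.11. The differences between the lines of Slc25a22 and Slc25a38 turned to 0.033 and 0.0103 under cyclic loess, and Slc25a22 against Slc25a18 in alb-SREBP-1a∆P turned to 0.0222. A further 27 differences of named members that were not called changed sign. The main fit did not pair the samples by replicate number, and the correlations of same-numbered arrays do not settle whether they are paired. With the replicate number as a block, 7, 20 and 15 members were lower in the 3 comparisons. Without alb-SREBP-1a replicates 1 and 2, 8 members were lower in alb-SREBP-1a, with Slc25a3, Slc25a13, Slc25a29 and Slc25a38 lost and Slc25a25 among those gained. The causes were not tested.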
